A study of Bos taurus with 21 samples.

Results

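The change of fetal muscle over most of gestation was followed here between 110 and 260 days post conception (dpc), the first and the last stage of the series, with the foetuses of both breeds pooled. All arrays of these stages were used, 5 at each, which made 10 of the 21 arrays. Each array held Cy3-labelled RNA of 1 foetus of *Bos taurus*, measured on a bovine one-colour 44K design. At 110 dpc there were 3 Blonde d'Aquitaine (BA) and 2 Charolais (CH) foetuses, and at 260 dpc 2 BA and 3 CH foetuses. Both are French beef breeds, and BA was chosen by the study for its high muscle mass. All foetuses came from artificial insemination within the breed, none was treated, and the BA foetuses had not been genotyped for the muscle hypertrophy mutation known in that breed. The labels also name the sires, which foetuses of a breed shared. In BA the sires were Fallou and Oulou at 110 dpc and Oulou alone at 260 dpc. In CH they were Indiana and Jourdan at both stages. Each stage held 2 males and 3 females, but within a breed the sexes were uneven, with 2 males and 1 female against 0 males and 2 females in BA, and 0 males and 2 females against 2 males and 1 female in CH. The sample labels name the *Longissimus thoracis* muscle, whereas the methods of the study name *m. Semitendinosus*, so the muscle cannot be told from the sources. The labels call the arrays biological replicates, and each came from its own animal.

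Skeletal muscle is built before birth from dividing myoblasts, which leave the cell cycle, fuse into fibres and then fill these with contractile, membrane and energy proteins. Many muscle proteins exist in several forms, one used by most cells or by the early embryo and another by the adult fibre. Near term the fibre also acquires the fuel stores, ion channels and mitochondria on which movement after birth depends, while the connective tissue around it matures.

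A level is given throughout as the log2 of the processed signal of a gene's brightest tested probe minus the 75th percentile of its array. Values of single arrays are given with BA replicates first and CH replicates second. A difference is 260 dpc minus 110 dpc on the log2 scale with its standard error from limma, adjusted for breed, and a gene was called at a Benjamini-Hochberg adjusted p under 0.05. The arrays had between 29491 and 34501 probes well above background, out of 43653. All 13 tested genes of the skeletal muscle fibre list were higher at 260 dpc, which is a stage difference and no check of the tissue. The 75th percentile of the signal lay between 669.4 and 932.1 units at 110 dpc and between 524.9 and 668.9 units at 260 dpc, so that the stages did not overlap in overall brightness. Without scaling, the median difference of the tested probes was −0.41, against 0.00 after it, and every difference below is relative to that shift. BA replicate 3 of 110 dpc stood apart in interferon and macrophage genes and BA replicate 1 of that stage in tendon and cartilage genes, and results that rest on them are given with and without the array. Whether fewer cells of a kind or less RNA per cell lay behind a lower level cannot be told apart in whole muscle.

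Muscle at 260 dpc differed from muscle at 110 dpc in most of the genes measured. Of 10245 genes tested, 2943 were called higher, which is 28.7%, and 3024 lower, which is 29.5%. Beyond a change of 2-fold, tested as such, 586 genes (5.72%) were higher and 595 genes (5.81%) lower. Among called probes 48.3% were higher, against 22.9% on the unscaled values of the authors' table. The same sign was found in both breeds for 5965 of the 5967 called genes, and no probe passed the test of whether the stage difference itself differed between the breeds (the breed by stage interaction), while 1544 probes did at an unadjusted p under 0.05, which is 4.96% of those tested. Within single scan days, of which 1 held 1 array of 110 and 2 of 260 dpc and another 3 of each, 99.6% and 100% of the called genes had the sign of the whole comparison. BA replicate 3 of 110 dpc, alone on its scan day among the arrays compared, took no part in this check. The genes had been called on these same arrays, so the agreement by breed and by scan day was largely fixed in advance. The lists of genes described next were read against these shares, and their members are plotted by list.

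**Figure D1:**
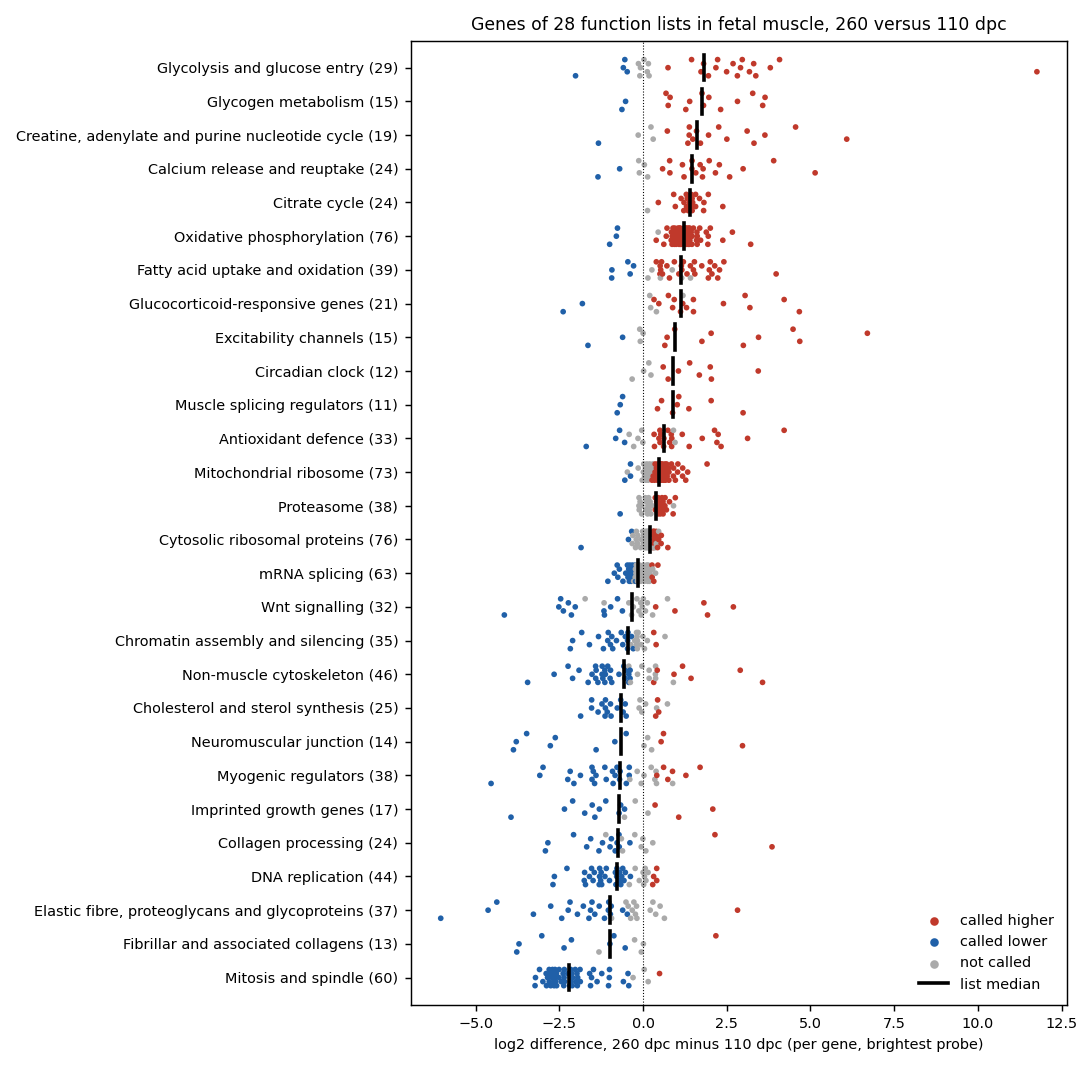
Difference between 260 and 110 dpc on the log2 scale (horizontal axis) for each tested gene of 28 function lists (rows, number of tested genes in brackets), with red points called higher, blue points called lower, grey points not called and a black bar at the list median. The medians ran from −2.22 for mitosis and spindle genes to 1.81 for glycolysis and glucose entry.

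The largest downward shift of any function list lay in the machinery of cell division. Of 60 tested genes of mitosis and the spindle, 56 were lower and 1 higher, and 49 were lower beyond 2-fold, with a median difference of −2.22 against 0.02 for all tested genes. *KIF11*, the motor that pushes spindle poles apart, read −2.69, −2.21, −1.60, −2.07 and −2.48 at 110 dpc and −4.75, −4.96, −6.01, −6.30 and −5.78 at 260 dpc. Every array of 260 dpc lay below every array of 110 dpc, and the gene, well above background on 1 of 5 arrays at 260 dpc, was at least 6.9-fold lower (adjusted p = 6.1e-06). *KIF4A*, a chromosome motor, fell by 3.21 ± 0.17 (adjusted p = 3.61e-07), *SGO1*, which guards chromatid cohesion, by 2.99 ± 0.16 (adjusted p = 4.14e-07), and *UBE2C*, which marks mitotic proteins for destruction, by 2.88 ± 0.19 (adjusted p = 1.31e-06). *TTK*, a checkpoint kinase measured above background on 1 of 5 arrays at 260 dpc, was at least 7.5-fold lower (adjusted p = 2.23e-06). *CDK1*, the kinase that drives entry into mitosis, fell by 2.61 ± 0.20, and its partner *CCNB1* by 2.58 ± 0.22. The single gene called higher was *NCAPD2*, a condensin subunit, at 0.49 ± 0.14, and its 3 probes disagreed in direction. *CEP55*, *ZWILCH* and *KIF22* were not called, with differences of −0.30, 0.04 and 0.15, though 2 dimmer probes of *KIF22* were called lower.

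The genes that copy DNA moved less than those that divide the cell. In the list of DNA replication 31 of 44 genes were lower and 4 higher, with a median of −0.78, and 8 were lower beyond 2-fold. *RRM2*, the subunit of ribonucleotide reductase made in S phase, fell by 2.69 ± 0.17 (adjusted p = 1.26e-06). *CDC6* and *ORC1*, which load the replicative helicase, were well above background on no array of the last stage, and were at least 1.83-fold and at least 1.91-fold lower (adjusted p = 3.3e-06 and 0.00027). Of the helicase itself *MCM4* fell by 1.60 ± 0.09, *MCM3* by 1.49 ± 0.18 and *MCM5* by 1.30 ± 0.11, whereas *PCNA*, the sliding clamp that repair also uses, fell by 0.61 ± 0.12. The 4 members called higher were *RFC2*, *ORC4*, *RPA2* and *POLD2*, at 0.29, 0.32, 0.41 and 0.41, and the first 2 of these turned sign on the unscaled table. *RPA1* and *DUT* were not called, at 0.02 and −0.23.

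In the list of cell cycle exit and inhibition 12 of 26 genes were lower and 5 higher. The list holds cyclins, their kinases and E2F factors beside the inhibitors, so these counts do not describe inhibitors alone. *CDKN1A*, the inhibitor p21 that myoblasts raise when they stop dividing, read 3.91, 4.38, 4.31, 4.52 and 4.45 at 110 dpc and 0.55, 0.70, 2.50, 2.68 and 1.18 at 260 dpc. The stages were far apart, and the gene fell by 2.97 ± 0.33 (adjusted p = 4.03e-05). *E2F1*, a driver of S phase, fell by 2.50 ± 0.21, *CCND2* by 2.49 ± 0.10, *RBL1* by 2.09 ± 0.15 and *CDKN1C*, the imprinted inhibitor p57, by 1.52 ± 0.09. In the other direction *GADD45A*, a stress-induced growth arrest gene, rose by 1.96 ± 0.22, *CCNG1* by 1.67 ± 0.16 and *TOB1*, an antiproliferative factor, by 1.46 ± 0.08. The retinoblastoma gene *RB1* and *CDKN1B* were not called, at −0.06 and 0.24.

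Chromatin genes tied to division were lower as well, 20 of 35 in the list of chromatin assembly and silencing, with 2 higher and a median of −0.45. *UHRF1*, which keeps DNA methylation through replication, fell by 2.17 ± 0.19 (adjusted p = 1e-05), and *EZH2*, the Polycomb methyltransferase that silences muscle genes in myoblasts, by 1.33 ± 0.16 (adjusted p = 8.24e-05). *HMGB3* fell by 1.83 ± 0.24, *DNMT1* by 0.65 ± 0.09 and *HMGA1* by 0.79 ± 0.11, while *EED* and *HAT1* rose by 0.32 ± 0.09 and 0.39 ± 0.10, the former with the opposite sign on the unscaled table. *LMNA*, *HDAC1* and *DNMT3A* were not called, at −0.36, −0.06 and −0.19, though 1 dimmer probe of *DNMT3A* was called higher.

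All 3 IGF2 mRNA-binding proteins, RNA-binding factors of the embryo, fell. *IGF2BP1* read −1.49, −1.21, −1.01, −1.06 and −1.32 at 110 dpc and −7.02, −6.94, −7.20, −6.83 and −7.05 at 260 dpc. It was well above background on 5 of 5 arrays at 110 dpc and on 0 of 5 at 260 dpc, and was at least 14.3-fold lower (adjusted p = 3.13e-09, mean levels −1.22 and −7.01). *IGF2BP3* fell by 2.93 ± 0.15 (adjusted p = 3.55e-07) and *IGF2BP2*, which takes part in myoblast growth, by 2.18 ± 0.37 (adjusted p = 0.000683). Of the other tested members of that list *MSI2* and *ARID3B* rose by 1.26 ± 0.12 and 0.79 ± 0.24, and *DICER1* was not called at −0.04.

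Energy metabolism shifted upward in nearly all of its lists. Of 76 tested genes of oxidative phosphorylation, which encode the respiratory chain and ATP synthase, 72 were higher and 3 lower, with a median of 1.23, and the stages did not overlap for 71 of those that were higher (over all genes 23.4% did not overlap with 260 dpc above). *SDHB*, the iron-sulphur subunit of complex II, rose by 2.38 ± 0.11 (adjusted p = 1.65e-07), *NDUFS7* of complex I by 2.01 ± 0.14 (adjusted p = 1.77e-06), *UQCRB* of complex III by 1.95 ± 0.13 (adjusted p = 1.4e-06) and *ATP5MC1*, a membrane ring subunit of ATP synthase, by 1.94 ± 0.14 (adjusted p = 2.23e-06). The largest rises were those of *COX7A1*, at 3.21 ± 0.21, and *COX8B*, at 2.67 ± 0.19, which encode muscle forms of cytochrome c oxidase subunits. The only members called lower were *COX7A2*, *COX6A1* and *COX8A*, at −1.0, −0.80 and −0.76, and these encode the forms of the same subunits found in most tissues. *NDUFA3* was the single member not called, at 0.45.

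In the citrate cycle 23 of 24 genes were higher and 0 lower, with a median of 1.41. The subunits of complex II, among them *SDHB*, were counted both here and in oxidative phosphorylation. *SUCLA2*, the ATP-forming succinyl-CoA ligase subunit, rose by 1.95 ± 0.11 (adjusted p = 5.86e-07), mitochondrial malate dehydrogenase *MDH2* by 1.82 ± 0.13 (adjusted p = 2.27e-06) and citrate synthase *CS* by 1.32 ± 0.10 (adjusted p = 3.31e-06). *PC*, pyruvate carboxylase, which refills the cycle, was not called at 0.13.

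Genes for the uptake and burning of fatty acids were higher in 28 of 39 cases and lower in 5, with a median of 1.14. *LPL*, the lipase that frees fatty acids from circulating triglyceride, read −0.99, −0.96, −1.28, −0.82 and −0.80 at 110 dpc and 3.13, 2.81, 2.72, 3.51 and 3.05 at 260 dpc. The stages did not overlap, and the gene rose by 3.97 ± 0.16 (adjusted p = 7.39e-08). *SLC27A6* rose by 2.41 ± 0.69, *ETFDH*, which passes electrons from fat oxidation to the respiratory chain, by 2.28 ± 0.11, the fatty acid transporter *CD36* by 2.23 ± 0.09, *ACSL1* by 2.14 ± 0.10, *ACADVL*, the first enzyme of long-chain oxidation, by 2.06 ± 0.10, and *PPARA*, a receptor that turns on such genes, by 2.01 ± 0.28. *SLC27A4*, *ACSL3* and *ACAD9* fell by 0.94 ± 0.23, 0.93 ± 0.13 and 0.45 ± 0.10, and *ACAA2*, *CPT2* and *FABP4* were not called, at 0.26, 0.15 and 1.42.

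Most genes of glycolysis and glucose entry were higher. Of 29 genes 18 were higher and 4 lower, 17 of the former beyond 2-fold, with a median of 1.81. *SLC2A4*, the insulin-responsive glucose transporter GLUT4, read 0.08, 0.07, 0.13, 0.29 and 0.03 at 110 dpc and 3.26, 3.19, 3.29, 3.50 and 3.36 at 260 dpc. *SLC2A1*, the transporter GLUT1 of most fetal cells, read 0.64, 0.70, 0.93, 0.87 and 0.61 at 110 dpc and −1.54, −1.44, −1.28, −1.18 and −0.66 at 260 dpc. The first was above and the second below its 110 dpc range on every 260 dpc array, with a rise of 3.18 ± 0.09 (adjusted p = 1.45e-08) and a fall of 2.02 ± 0.16 (adjusted p = 4.1e-06). *PGAM2*, muscle phosphoglycerate mutase, rose by 3.80 ± 0.18, *LDHA* by 3.37 ± 0.16, *ENO3* by 3.30 ± 0.13, *PKM* by 2.96 ± 0.18 and *PFKM* by 2.91 ± 0.13. *HK1* and *PFKL* fell by 0.54 ± 0.09 and 0.47 ± 0.15, and *ENO1*, *LDHB* and *SLC16A1* were not called, at −0.08, 0.18 and −0.14. *ALDOC* stood at 4.08 on its brightest probe, but another of its probes was called lower, so its direction was not settled.

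The largest rise of any gene was that of *FBP2*, muscle fructose-1,6-bisphosphatase, which lets muscle rebuild glycogen from lactate. It read −6.03, −7.20, −6.49, −7.43 and −7.40 at 110 dpc and 4.85, 4.73, 4.56, 5.07 and 4.59 at 260 dpc. No array at 110 dpc was well above background and all 5 at 260 dpc were, which gives a level at least 1174-fold higher (adjusted p = 3.13e-09, mean levels −6.91 and 4.76), and its other probe was called in the same direction.

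Glycogen itself was among the fuels whose genes rose, with 13 of 15 higher and 2 lower and a median of 1.76. *PYGM*, muscle glycogen phosphorylase, the enzyme missing in McArdle disease, rose by 3.64 ± 0.16 (adjusted p = 1.34e-07), *PGM1* by 3.57 ± 0.11 (adjusted p = 2.04e-08), the targeting subunit *PPP1R3C* by 3.27 ± 0.18 (adjusted p = 5.03e-07), and muscle glycogen synthase *GYS1* by 2.32 ± 0.09 (adjusted p = 6.48e-08). *EPM2A* rose by 2.82 ± 0.24, *PHKG1* by 1.96 ± 0.21, *PPP1R3A* by 1.81 ± 0.14, glycogenin *GYG1* by 1.76 ± 0.15, the branching enzyme *GBE1* by 1.39 ± 0.15, *GAA* by 1.28 ± 0.11 and *PYGL* by 0.69 ± 0.12. *UGP2* and *PYGB*, the brain form of the phosphorylase, fell by 0.63 ± 0.14 and 0.52 ± 0.14.

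Genes of creatine, adenylate and the purine nucleotide cycle, which buffer ATP during contraction, were higher in 15 of 19 cases and lower in 1, with a median of 1.60. *CKMT2*, the creatine kinase of muscle mitochondria, read −2.44, −2.64, −2.43, −2.01 and −2.21 at 110 dpc and 3.71, 3.50, 3.46, 4.23 and 4.16 at 260 dpc. The gap between the stages was wider than the spread within either, and the gene rose by 6.08 ± 0.16 (adjusted p = 7.18e-09). *GATM* and *GAMT*, which carry out both steps of creatine synthesis, rose by 4.56 ± 0.21 and 1.96 ± 0.13, *ADSS1* by 3.31 ± 0.16, *AMPD1* by 1.71 ± 0.14 and *PRKAG3*, the AMP kinase subunit of glycolytic muscle, by 2.26 ± 0.25. *PRKAA1*, *PRKAG1* and *CKMT1A* were not called, at 0.24, −0.14 and 0.30. *CKB* stood at 3.64 on its brightest probe, yet 4 of its 6 probes were called higher and 2 lower.

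Breakdown of amino acids was higher in 15 of 23 genes and lower in 2, with rises of the alanine aminotransferase *GPT* at 3.25 ± 0.16 and the mitochondrial aspartate aminotransferase *GOT2* at 1.95 ± 0.12, whereas *BCAT2* fell by 0.45 ± 0.11. Supply of serine and other amino acids was mixed, with 5 of 21 higher and 6 lower. These shares were close to those of all genes or below them, and 4 genes were lower without BA replicate 1 of 110 dpc. Among the 6 lower were *ASNS* at −1.98 ± 0.38, *SLC7A5* at −1.86 ± 0.40 and *SHMT2* at −1.42 ± 0.12. The median difference of this list had opposite signs in the breeds, −0.54 in BA and 0.31 in CH. Its array means had a standard deviation of 0.58 near term, against 0.08 at the first stage. A breed difference of the list was not tested.

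The mitochondrial ribosome moved in the same direction by a smaller step, with 50 of 73 genes higher, 3 lower and a median of 0.49. Of the genes that build mitochondria 11 of 21 were higher and 1 lower. *PERM1*, a muscle factor that acts with PGC-1 and ERR proteins, read −4.66, −3.59, −3.67, −3.87 and −4.26 at 110 dpc and 0.81, 0.80, 1.07, 1.32 and 0.98 at 260 dpc. It was higher on every 260 dpc array, by 4.98 ± 0.22 (adjusted p = 1.26e-07). *ESRRA* rose by 1.52 ± 0.16 (adjusted p = 3.41e-05), *PPARGC1A*, the coactivator PGC-1 alpha, by 1.37 ± 0.19 (adjusted p = 0.00016), and the fusion genes *MFN2* and *OPA1* by 1.31 ± 0.20 and 0.89 ± 0.14. *TFAM*, which packs mitochondrial DNA, was not called at 0.03, nor were *NRF1*, *POLRMT*, *TFB1M* and *DNM1L*, at 0.14, −0.02, −0.04 and −0.20. Markers of the muscle fibre rose beside these energy genes. The mean of the 13 fibre markers, relative to its 110 dpc mean, ran from −0.24 to 0.22 among the 110 dpc arrays and from 2.24 to 2.54 among those of 260 dpc, a larger step than that of the energy lists, and its part in their rise was not tested.

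Within many protein families the member used by adult skeletal muscle rose, while the member used more widely or earlier mostly fell or was not called. The families compared, 26 pairs written with the results of single genes in view, are a description and no test was run on them. Both genes were tested in 21 pairs, and in 19 of these no gene had probes called in opposite directions. The other pairs were phosphoglycerate mutase, where *PGAM2* rose and its partner fell, and creatine kinase, where both were called higher on the brightest probe, at 3.64 for *CKB* and 3.11 for the muscle form, whereas the muscle member had the higher difference in the other 20 pairs. In all 19 the muscle member was called higher, and in 13 the other member was called lower. The median difference was 2.97 for the muscle members and −0.69 for the others.

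**Figure D2:**
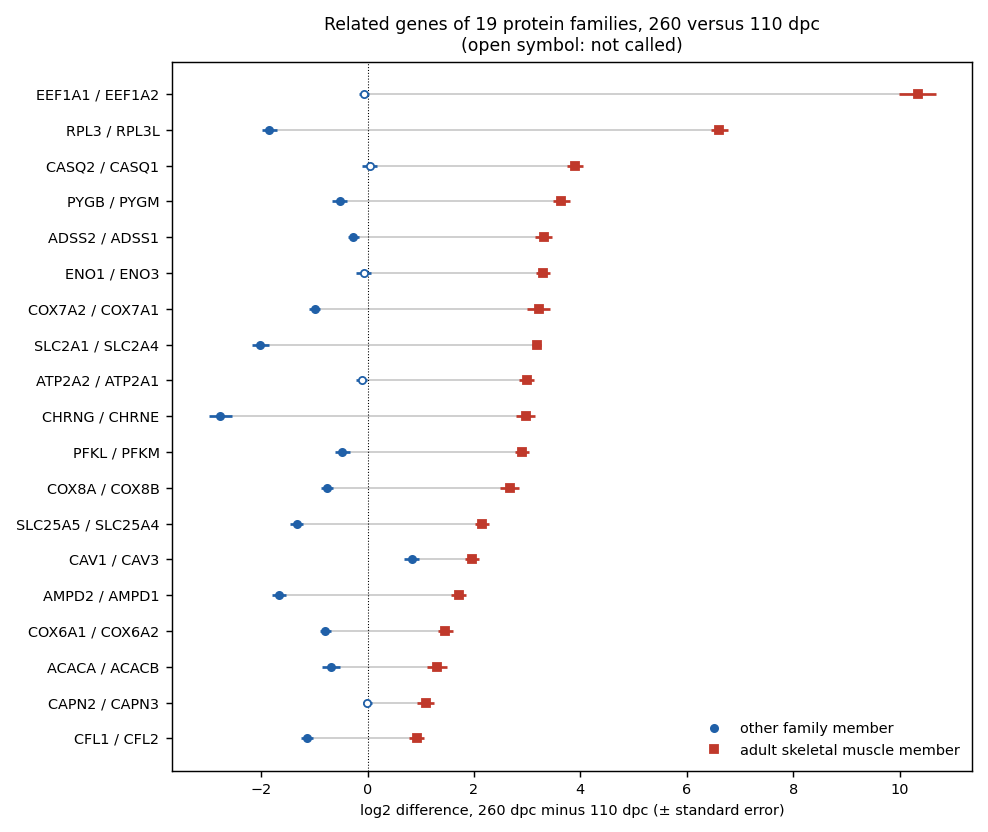
Difference between 260 and 110 dpc on the log2 scale with its standard error (horizontal axis) for 19 pairs of related genes (rows, other family member first), with red squares for the adult skeletal muscle member, blue circles for the other member and open symbols for genes not called. The muscle member lay to the right of its partner in all 19 pairs, and the *EEF1A2* point is a fitted value against a level mostly below background.

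The translation factor eEF1A showed the widest gap. *EEF1A2*, the form of adult muscle and neurons, read −7.68, −6.88, −5.64, −7.39 and −7.07 at 110 dpc and 3.29, 3.41, 2.96, 3.43 and 3.73 at 260 dpc. It was well above background on 1 of 5 arrays at 110 dpc and on all 5 at 260 dpc, and was at least 432-fold higher (adjusted p = 2.92e-08), while *EEF1A1*, the form of other tissues, was not called at −0.06 ± 0.10. Ribosomal protein L3 showed a like pattern. *RPL3L*, its counterpart of heart and skeletal muscle, read −1.55, −0.99, −1.21, −1.45 and −0.84 at 110 dpc and 5.46, 5.63, 5.32, 5.33 and 5.20 at 260 dpc. *RPL3* read 6.45, 6.62, 6.30, 6.55 and 6.40 at 110 dpc and 4.61, 4.46, 4.30, 4.95 and 4.84 at 260 dpc. The first rose by 6.61 ± 0.16 (adjusted p = 4.99e-09) and the second fell by 1.85 ± 0.14 (adjusted p = 3.44e-06), and all 6 probes of *RPL3* were called lower.

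Of the ADP/ATP carriers of the mitochondrial membrane *SLC25A4* rose by 2.14 ± 0.13 (adjusted p = 8.55e-07) and *SLC25A5* fell by 1.33 ± 0.13 (adjusted p = 1.55e-05). Among enzymes *AMPD1* and *AMPD2* stood at 1.71 and −1.66, *ADSS1* and *ADSS2* at 3.31 and −0.27, and *ACACB* and *ACACA* at 1.31 and −0.69. Of the cofilins, which sever actin, *CFL1* stood at −1.14 and *CFL2* at 0.92. Among the 19 pairs both members rose for caveolin alone, *CAV3* by 1.96 ± 0.13 and *CAV1* by 0.83 ± 0.15. For *ATP2A2*, *CASQ2*, *ENO1* and *CAPN2* the partner rose while the gene itself was not called, at −0.11, 0.04, −0.08 and 0.00, though 2 dimmer probes of *ATP2A2* and 1 of *ENO1* were called higher.

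**Figure D3:**
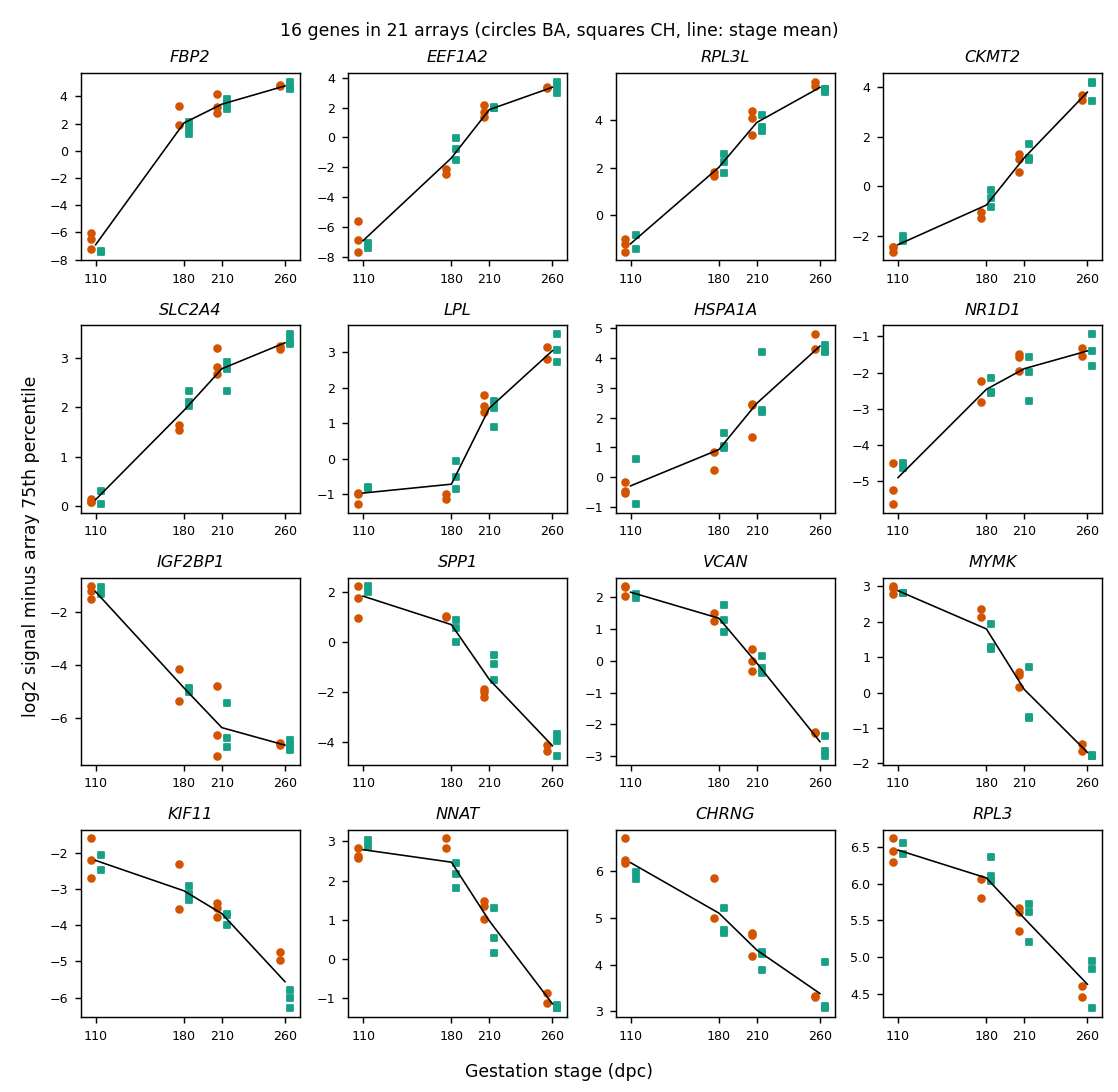
Level of 16 genes (log2 signal minus the 75th percentile of the array, vertical axis, scaled per gene) on all 21 arrays by stage in dpc (horizontal axis), with circles for BA foetuses, squares for CH foetuses and a line through the stage means. At 110 and 260 dpc the arrays did not overlap for any of the 16 genes, the upper 8 of which were higher and the lower 8 lower at 260 dpc. The genes were picked for display from the called genes described in the text. Over all tested genes 23.4% did not overlap with 260 dpc above and 24.2% with 260 dpc below.

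The parts of the fibre that release and take back calcium rose, with 18 of 24 genes higher and 2 lower and a median of 1.46. *PLN*, phospholamban, which restrains the calcium pump, read −2.70, −2.19, −2.15, −2.33 and −2.38 at 110 dpc and 2.48, 2.55, 3.06, 2.54 and 3.56 at 260 dpc. The 260 dpc arrays were all above, and the gene rose by 5.14 ± 0.21 (adjusted p = 8.98e-08). *CASQ1*, the calcium store of fast fibres, rose by 3.90 ± 0.15 (adjusted p = 7.39e-08), the fast pump *ATP2A1* by 2.99 ± 0.14 (adjusted p = 1.56e-07), the release channel *RYR1* by 2.28 ± 0.17 (adjusted p = 2.86e-06), and *SYPL2* and *CACNG1* by 2.59 ± 0.14 and 2.16 ± 0.14. *PVALB*, the calcium buffer parvalbumin, fell by 1.34 ± 0.39 (adjusted p = 0.0136) and *CALR* by 0.70 ± 0.10 (adjusted p = 0.000201), and *ASPH* and *STIM1* were not called, at −0.13 and 0.14.

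Channels that set the excitability of the membrane were higher in 10 of 15 cases and lower in 2. *CLCN1*, the chloride channel lost in myotonia congenita, read −1.87, −1.56, −1.50, −1.62 and −1.42 at 110 dpc and 2.91, 3.37, 2.98, 3.23 and 2.98 at 260 dpc. It rose by 4.68 ± 0.13 (adjusted p = 1.22e-08), with no overlap. *SCN4B*, a sodium channel beta subunit, was well above background on 2 of 5 arrays at 110 dpc and was at least 50.4-fold higher (adjusted p = 2.75e-05). The inward rectifier *KCNJ12* rose by 4.48 ± 0.19 (adjusted p = 1.26e-07), *FXYD1* by 2.03 ± 0.14 (adjusted p = 2.08e-06), *KCNJ2* by 1.76 ± 0.39, *KCNJ11* by 0.95 ± 0.14, *KCNC1* by 0.72 ± 0.23 and the water channel *AQP4* by 0.65 ± 0.14, while *KCNC4*, not well above background at 110 dpc, was at least 7.86-fold higher (adjusted p = 5.55e-06). *AQP1*, the water channel of capillaries and red cells, fell by 0.61 ± 0.22, and *ATP1B4* and *KCNMA1* were not called, at −0.08 and 0.00.

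At the neuromuscular junction 8 of 14 genes were lower and 3 higher. *CHRNG*, the gamma subunit of the fetal acetylcholine receptor, read 6.17, 6.70, 6.23, 5.82 and 5.98 at 110 dpc and 3.33, 3.30, 4.06, 3.06 and 3.12 at 260 dpc. *CHRNE*, the epsilon subunit that takes its place in the adult receptor, read −1.75, −2.56, −2.02, −1.80 and −2.16 at 110 dpc and 1.10, 0.54, 1.10, 0.84 and 1.13 at 260 dpc. The stages did not overlap for either gene, *CHRNG* fell by 2.77 ± 0.22 (adjusted p = 4.74e-06) and *CHRNE* rose by 2.97 ± 0.18 (adjusted p = 8.35e-07), whereas the subunits shared by both receptors, *CHRNA1*, *CHRNB1* and *CHRND*, were not called, at 0.26, 0.14 and 0.03. *MUSK*, the receptor kinase that gathers the receptors, fell by 2.62 ± 0.23 (adjusted p = 8.73e-06), *RAPSN* by 0.84 ± 0.14, *ETV5* by 1.40 ± 0.11 and *PRKAR1A* by 0.50 ± 0.13, while *ACHE* and *LRP4* rose by 0.54 ± 0.12 and 0.61 ± 0.24. *NRG1*, the growth factor neuregulin 1, and *COLQ*, the collagen tail of acetylcholinesterase, were well above background on none of the 260 dpc arrays and were at least 3.34-fold and 5.08-fold lower (adjusted p = 2.48e-07 and 3.66e-06), and the neuregulin receptor *ERBB3* fell by 3.78 ± 0.18. Markers of nerve moved beside them. Of 8 tested neuron genes 5 were lower and 0 higher, and their mean, relative to 110 dpc, ran from −0.15 to 0.11 among the 110 dpc arrays and from −1.85 to −1.49 among those of 260 dpc. Of 11 Schwann cell genes 5 were higher, among them the myelin gene *MBP* at 1.88 ± 0.28, and 3 lower, among them *NGFR*, at −1.76 ± 0.13, and their part in the shift of the junction was not tested.

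Linkage of the fibre to its surroundings rose in part. In the list of the dystrophin complex and costamere 12 of 24 genes were higher and 4 lower, with *SYNM*, synemin, at 2.93 ± 0.13 against *LAMA4* at −1.06 and *DTNB* at −0.87. Of the contractile proteins 35 of 37 adult forms were higher and 0 lower, and of 9 developmental forms 5 were lower and 3 higher. Among cytoskeletal genes of non-muscle cells 29 of 46 were lower and 7 higher. *DPYSL4* fell by 3.45 ± 0.40, the microtubule regulator *STMN1* by 2.66 ± 0.12, *TUBB6* by 2.24 ± 0.14, nestin *NES* by 2.10 ± 0.20 and vimentin *VIM* by 1.05 ± 0.11, while the muscle tubulin *TUBA8* and *TUBA4A* rose by 3.57 ± 0.20 and 1.43 ± 0.13. *ACTB* was not read, since its 4 probes were called in both directions.

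Apart from the paired forms given above, genes for making protein moved by small steps. Of 76 cytosolic ribosomal protein genes 17 were higher and 3 lower, below the 28.7% and 29.5% of all genes, with a median of 0.20, and without BA replicate 1 at 110 dpc 10 were higher and 2 lower. The median turned to −0.26 relative to all genes under quantile normalization. Besides *RPL3*, *RPL8* and *RPS26* fell, by 0.44 ± 0.12 and 0.34 ± 0.12, and *RPL15* rose by 0.74 ± 0.17. Translation factors were higher in 22 of 41 cases and lower in 1, with a median of 0.34 (−0.03 relative to all genes under quantile normalization). *EIF1* rose by 1.32 ± 0.11 (adjusted p = 6.81e-06), *EIF2S2* by 1.10 ± 0.13 (adjusted p = 5.68e-05) and *ETF1* by 1.04 ± 0.10 (adjusted p = 2.13e-05), while the single factor called lower was the helicase *EIF4A1*, at −1.18 ± 0.10 (adjusted p = 6.98e-06). *EEF2* and *PABPC1* were not called, at 0.02 and −0.12. Genes that build ribosomes were called in 11 of 43 cases as lower and in 5 as higher, both under the shares of all genes.

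Genes of the mRNA splicing list were lower in 23 of 63 cases and higher in 4, none beyond 2-fold, with a median of −0.16. *PTBP2* and *PTBP1*, which hold back muscle and neural exons, fell by 1.05 ± 0.17 (adjusted p = 0.00048) and 0.77 ± 0.11 (adjusted p = 0.000183). The regulators that set the muscle pattern of exons were higher in 8 of 11 cases and lower in 3, with *PTBP1* counted in both lists. *RBM20*, which sets the length of titin, read 0.23, 0.48, 0.59, 0.98 and 0.18 at 110 dpc and 3.1, 3.36, 3.36, 4.02 and 3.88 at 260 dpc. The 260 dpc arrays all lay above, and it rose by 2.99 ± 0.19 (adjusted p = 1.33e-06). *RBM38* rose by 2.03 ± 0.24, *MBNL1*, the factor sequestered in myotonic dystrophy, by 1.37 ± 0.16, *CELF1* by 1.07 ± 0.10, *MBNL2* by 1.02 ± 0.12, *RBFOX1* by 0.88 ± 0.12, *QKI* by 0.55 ± 0.15 and *RBM24* by 0.43 ± 0.12, while *CELF2* and *RBFOX2* fell by 0.68 ± 0.19 and 0.61 ± 0.11.

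Protein turnover and defence against stress rose in most of the lists that cover them. The proteasome was higher in 20 of 38 genes and lower in 1, with a median of 0.39, none beyond 2-fold, and the member called lower was *PSME2*, an activator induced by interferon, at −0.68 ± 0.17 and, when BA replicate 3 of 110 dpc was left out, at −0.58 (adjusted p = 0.0052). In the list of autophagy and atrophy ligases 18 of 34 genes were higher and 3 lower. *TRIM63*, the ubiquitin ligase MuRF1 that degrades myosin, read 0.35, 1.08, 0.53, 1.22 and 1.21 at 110 dpc and 3.87, 4.16, 4.77, 4.04 and 3.89 at 260 dpc. It rose by 3.19 ± 0.21 (adjusted p = 1.23e-06), with every 260 dpc array above, and *FBXO40* rose by 2.75 ± 0.30, *TRIM54* by 2.04 ± 0.16 and *SQSTM1* by 1.67 ± 0.26, whereas *MAP1LC3A* and *BNIP3L* fell by 1.06 ± 0.09 and 1.05 ± 0.13.

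Chaperones were divided, with 17 of 42 higher and 10 lower and a median of 0.12 (−0.12 relative to all genes under quantile normalization). *HSPA1A*, the inducible Hsp70, read −0.46, −0.15, −0.52, 0.60 and −0.90 at 110 dpc and 4.81, 4.32, 4.23, 4.44 and 4.19 at 260 dpc. It rose by 4.69 ± 0.27 (adjusted p = 5.62e-07), and *DNAJB5*, *BAG3*, *CRYAB* and *HSPB8*, small heat-shock proteins and partners of Hsp70, by 2.57 ± 0.25, 2.33 ± 0.13, 1.84 ± 0.12 and 1.67 ± 0.13. Among chaperones of the endoplasmic reticulum *PDIA4* fell by 1.18 ± 0.11, *PDIA3* by 0.96 ± 0.21, *SERPINH1*, which folds collagen, by 0.95 ± 0.15, *HSP90B1* by 0.89 ± 0.13 and *HSPA5* by 0.86 ± 0.12. In the cytosol *HSP90AB1* and the chaperonin subunit *CCT4* fell by 0.72 ± 0.14 and 0.48 ± 0.12, and this division by compartment was made after the values had been seen. *HSPA8*, *HSP90AA1* and *TCP1* were not called, at −0.17, 0.12 and −0.13.

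Antioxidant genes were higher in 22 of 33 cases and lower in 4, with a median of 0.62. The metallothioneins *MT2A* and *MT1A* rose by 4.21 ± 0.27 (adjusted p = 1.21e-06) and 3.12 ± 0.28 (adjusted p = 1.08e-05), mitochondrial superoxide dismutase *SOD2* by 2.33 ± 0.11 (adjusted p = 2.15e-07), *MSRB1* by 2.24 ± 0.19 and *NQO1* by 2.14 ± 0.29, while haem oxygenase *HMOX1*, high in macrophages, fell by 1.70 ± 0.29 (adjusted p = 0.000707), with a difference of −1.62 (adjusted p = 0.00182) when the same array was left out.

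The extracellular matrix shifted downward. Of 37 tested genes for elastic fibres, proteoglycans and glycoproteins 22 were lower and 1 higher, with a median of −0.97. *SPP1*, osteopontin, a matrix cytokine, read 2.25, 0.99, 1.77, 2.24 and 2.00 at 110 dpc and −4.34, −4.12, −3.95, −4.55 and −3.68 at 260 dpc. *VCAN*, versican, a proteoglycan of immature matrix, read 2.05, 2.33, 2.35, 1.97 and 2.09 at 110 dpc and −2.26, −2.23, −3.00, −2.83 and −2.36 at 260 dpc. The 260 dpc arrays lay below all 110 dpc arrays for both, with falls of 6.04 ± 0.25 (adjusted p = 9.4e-08) and 4.63 ± 0.14 (adjusted p = 1.79e-08). *POSTN*, periostin, fell by 4.37 ± 0.31 (adjusted p = 2.27e-06), *THBS3* by 2.76 ± 0.15, *CTHRC1* by 2.43 ± 0.44, the microfibril gene *MFAP2* by 1.96 ± 0.17, biglycan *BGN* by 1.61 ± 0.44 and fibronectin *FN1* by 1.52 ± 0.23. The single gene that rose was *ELN*, elastin, by 2.82 ± 0.61 (adjusted p = 0.00289). *FBN1*, *FBLN1* and *FBLN5* were not called, at −0.44, −0.19 and −0.23.

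Of 13 collagen genes 8 were lower and 1 higher. *COL11A1* fell by 3.70 ± 0.69, *COL12A1* by 3.02 ± 0.42, *COL27A1* by 2.36 ± 0.16 and *COL11A2* by 2.14 ± 0.69, and of the main fibril collagens *COL1A2* fell by 0.99 ± 0.28 (adjusted p = 0.0121) and *COL3A1* by 0.53 ± 0.19 (adjusted p = 0.0336), while *COL1A1*, *COL6A1* and *COL6A2* were not called, at −0.25, −0.05 and 0.01. *COL8A1*, a collagen of vessel walls, rose by 2.17 ± 0.51, and *COL5A3* fell by 0.87 ± 0.16. Enzymes that modify and cross-link collagen were lower in 14 of 24 cases and higher in 2. *P3H2* and *P4HA3*, prolyl hydroxylases, fell by 2.92 ± 0.16 and 2.84 ± 0.22, *FKBP10* by 2.07 ± 0.14 and *LOXL1* by 1.68 ± 0.30, whereas *PCOLCE2* and *LOXL4* rose by 3.85 ± 0.45 and 2.15 ± 0.35. In the basement membrane list 3 of 11 genes were higher and 4 lower, close to the shares of all genes. Among the former were *COL15A1* at 1.80 ± 0.13 and *LAMB2*, the laminin chain of the synapse, at 0.89 ± 0.10. Among proteases 10 of 23 were lower and 4 higher, with *MMP14* at −2.30 and its inhibitors *TIMP3* and *TIMP4* at 0.95 and 1.09.

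Markers of connective tissue moved beside the matrix. Of 14 fibroblast markers 6 were lower and 2 higher (4 lower without BA replicate 1 of 110 dpc), and several of them are matrix genes of the lists above. Of 7 tendon markers 4 were lower and 1 higher. *TNMD*, the tendon marker tenomodulin, read 3.63, −1.03, 1.45, 1.59 and 0.12 at 110 dpc and −0.51, −4.15, −4.22, −3.51 and −3.39 at 260 dpc, and *COL2A1*, the collagen of cartilage and the only cartilage marker tested, read 5.33, 1.41, 2.88, 3.01 and 2.07 at 110 dpc and 0.15, −1.67, −0.86, −1.04 and −1.22 at 260 dpc. BA replicate 1 was the highest of the 110 dpc arrays for both, and its mean of the tendon markers was 1.37 above the 110 dpc mean, against 0.07 for the next array. The stages overlapped for *TNMD* and not for *COL2A1*, which fell by 4.12 ± 0.92 (adjusted p = 0.00358) and 3.77 ± 0.66 (adjusted p = 0.000868). Without that array the differences were −3.64 and −3.27 (adjusted p = 0.00605 and 0.000288). Without it 20 of the 37 elastic fibre and proteoglycan genes and 14 of the 24 collagen-processing genes were lower, with 7 of the 13 collagens and 8 of the 23 proteases and inhibitors. The part of tendon or fibroblast cells in the fall of the matrix was not tested.

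Of 38 regulators of myogenesis 23 were lower and 6 higher, with a median of −0.69. *MYMK*, myomaker, the membrane protein without which myoblasts do not fuse, read 2.79, 3.01, 2.96, 2.83 and 2.83 at 110 dpc and −1.64, −1.44, −1.77, −1.78 and −1.80 at 260 dpc. The 260 dpc arrays all lay below the 110 dpc arrays, with a fall of 4.54 ± 0.09 (adjusted p = 3e-09), and all 3 probes were called lower. *CDH2*, the adhesion protein N-cadherin of myoblasts, fell by 3.08 ± 0.18 (adjusted p = 6e-07), *MSC*, a repressor of myogenic factors, was at least 2.65-fold lower (adjusted p = 5.15e-06), *SNAI1* fell by 2.25 ± 0.10 and *NCAM1* by 1.87 ± 0.12. The 4 factors of the MyoD family did not move together. *MYF5*, the earliest, fell by 2.17 ± 0.13 (adjusted p = 6.83e-07), and *MYF6*, the one of mature fibres, rose by 1.28 ± 0.20 (adjusted p = 0.000385). *MYOD1* read 1.31, 1.56, 2.06, 2.46 and 6.12 at 110 dpc and 2.38, 4.06, 3.15, 2.08 and 2.58 at 260 dpc. CH replicate 2 at 110 dpc was above all other arrays, and the gene was not called, at −0.05 ± 0.82 with it and 1.03 without it (adjusted p = 0.0825). *MYOG* stood at −0.78 on its brightest probe, but its other probe was called higher, so its direction was not settled, and the same held for *CDH15*. *SRF*, the factor of actin genes, rose by 1.70 ± 0.18, and *MEF2C* and *VGLL2* were not called, at −0.17 and −0.40. Markers of satellite cells were lower in 5 of 11 cases and higher in 2.

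Of 17 imprinted growth genes 11 were lower and 3 higher. *NNAT*, neuronatin, read 2.57, 2.84, 2.64, 2.87 and 3.03 at 110 dpc and −0.88, −1.14, −1.27, −1.18 and −1.26 at 260 dpc. It fell by 3.94 ± 0.13 (adjusted p = 2.23e-08), with no overlap, and the placental and growth genes *PEG10*, *MEST*, *PLAGL1* and *DLK1* fell by 2.35 ± 0.29, 2.10 ± 0.16, 1.74 ± 0.12 and 1.44 ± 0.13. *H19* rose by 2.08 ± 0.10 (adjusted p = 2.83e-07), *GRB10* by 1.07 ± 0.19 (adjusted p = 0.001) and *IGF2*, which shares its control region with *H19*, by 0.36 ± 0.10 (adjusted p = 0.0108), though its sign turned under quantile normalization and on the unscaled table, while *MEG3* and *SNRPN* were not called, at −0.55 and 0.15. In the wider IGF and insulin list 8 of 24 genes were higher and 6 lower, close to the shares of all genes. *IGFBP2* and *IGFBP3*, binding proteins of the IGFs, fell by 1.89 ± 0.22 and 1.32 ± 0.19 and the receptor *IGF1R* by 1.04 ± 0.17, whereas *SESN1* rose by 1.58 ± 0.11 and *AKT2*, the kinase of insulin action, by 0.91 ± 0.20. *IGF1* and *GHR* were not called, at 0.31 and 0.00.

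Developmental signals fell in part. In Wnt signalling 12 of 32 genes were lower and 5 higher. The feedback inhibitor *NKD1* and the enhancer *RSPO2* were well above background on none of the 260 dpc arrays and were at least 8.5-fold and 4.65-fold lower (adjusted p = 5.47e-06 and 0.000471), *ROR2*, a receptor of Wnt5a, fell by 2.46 ± 0.22, and the decoys *SFRP1* and *SFRP2* fell by 2.14 ± 0.10 and 2.38 ± 0.23. Of the other antagonists *DKK1*, *DKK2* and *FRZB* rose by 2.70 ± 0.28, 1.93 ± 0.41 and 1.82 ± 0.20. *CTNNB1*, beta-catenin, was not called at 0.07. In hedgehog signalling 4 of 7 genes were lower and 0 higher, namely the coreceptors *CDON* and *BOC* at −1.84 and −0.70, *SMO* at −1.47 and the target *GLI1* at −1.11, while *PTCH1*, *HHIP* and *IHH* were not called, at 0.37, 0.39 and −0.04. In Notch signalling 5 of 16 were lower, close to the share of all genes, with *HES6* at −3.04, and 2 higher. Growth factors of the FGF, PDGF and EGF families were lower in 13 of 26 cases and higher in 4. *FGFR4*, the FGF receptor of myoblasts, fell by 1.46 ± 0.20 (adjusted p = 0.000182), *FGFR2* by 2.02 ± 0.22 and *FGF7* by 2.19 ± 0.24, and *FGF6*, the FGF of muscle, was at least 1.21-fold lower (adjusted p = 1.54e-05). *BTC*, the EGF receptor ligand betacellulin, moved the other way, reading −3.65, −4.52, −3.42, −3.61 and −2.51 at 110 dpc and 1.77, 2.23, 1.47, 1.71 and 1.95 at 260 dpc. All its 3 probes were called higher, and it rose by 5.32 ± 0.32 (adjusted p = 7.94e-07).

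Many clock and hormone-responsive genes rose. Of 12 circadian genes 8 were higher and 0 lower. *NR1D1*, the repressor REV-ERB alpha, read −5.63, −4.49, −5.25, −4.49 and −4.63 at 110 dpc and −1.53, −1.31, −1.81, −1.41 and −0.93 at 260 dpc. It rose by 3.44 ± 0.24 (adjusted p = 2.3e-06), *BHLHE40* by 2.04 ± 0.22 (adjusted p = 3.51e-05), *BHLHE41* by 1.68 ± 0.21, *HLF* by 1.39 ± 0.37, *ARNTL*, the core activator BMAL1, by 1.06 ± 0.17, *RORA* by 0.75 ± 0.14 and *CRY1* by 0.60 ± 0.12. *PER2*, *DBP*, *NPAS2* and *NFIL3* were not called, at −0.33, 0.24, 0.17 and 0.02, though 1 dimmer probe of *DBP* was called higher, and the hour of collection of the foetuses was not given in the sources used here.

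Of 21 genes known to answer glucocorticoids 15 were higher and 2 lower, with a median of 1.12. *HSD11B1*, the enzyme that regenerates active cortisol within tissues, was well above background on no array of the first stage and was at least 8.38-fold higher at 260 dpc (adjusted p = 3.9e-06). *DUSP1* rose by 3.05 ± 0.14 (adjusted p = 1.48e-07), *ZBTB16* by 2.40 ± 0.15 (adjusted p = 8.74e-07), *KLF9* by 1.51 ± 0.27, *SGK1* by 1.30 ± 0.26, *KLF15* by 1.12 ± 0.20 and *TSC22D3*, known as GILZ, by 0.93 ± 0.13. Against that direction *FKBP5*, a classic target of the receptor, read 0.27, 0.51, 0.37, 0.70 and 0.54 at 110 dpc and −1.38, −1.42, −2.02, −0.77 and −0.85 at 260 dpc, and it fell by 1.81 ± 0.22 (adjusted p = 8.51e-05). *ANGPTL4* fell by 2.38 ± 0.18 (adjusted p = 3.95e-06), the receptor *NR3C1* rose by 0.33 ± 0.08 with the opposite sign on the unscaled table, and *ERRFI1* and *CEBPD* were not called, at 0.20 and 0.23. In the thyroid hormone list 5 of 12 were higher and 4 lower, with *DIO2*, which activates the hormone, at 1.53 ± 0.43, the receptor *THRA* at 0.66 ± 0.10 and *THRSP* at −3.41 ± 0.51.

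Of 25 genes of cholesterol synthesis 16 were lower and 3 higher, with a median of −0.67. *SQLE* fell by 1.34 ± 0.23 and *CYP51A1* by 1.23 ± 0.23, while *FDFT1*, *EBP* and *SREBF1* rose by 0.47 ± 0.14, 0.44 ± 0.11 and 0.38 ± 0.12, the last with no rise on the unscaled table. In the list of fat synthesis and storage 10 of 21 were higher and 6 lower, with a median of 0.43. *CIDEC*, a lipid droplet protein, rose by 2.97 ± 1.07, the lipase *PNPLA2* by 1.72 ± 0.20 and *DGAT2* by 1.50 ± 0.58, whereas *ME1*, *ACLY* and *ELOVL6*, of fatty acid synthesis, fell by 2.78 ± 0.15, 1.50 ± 0.11 and 1.38 ± 0.16. Of 10 adipocyte markers 5 were higher and 2 lower.

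The 15 largest fitted rises outside the contractile lists were those of *FBP2*, *EEF1A2*, *KLHL33*, *ETNPPL*, *PPDPFL*, *LRRC39*, *SCN4B*, *RPL3L*, *UNC93A*, *ART3*, *CKMT2*, *RGS5*, *LOC782922*, *BTC* and *PLN*. *KLHL33* was well above background on 3 of 5 arrays at 110 dpc and was at least 331-fold higher (adjusted p = 1.22e-05). *ETNPPL*, which breaks down phosphoethanolamine, and *RGS5*, a G-protein regulator of pericytes, were not well above background at 110 dpc and were at least 88.9-fold and 16.3-fold higher (adjusted p = 3.13e-09 and 1.24e-07), and *UNC93A* was at least 39.6-fold higher (adjusted p = 5.6e-08). *LRRC39*, a protein of the sarcomere's M-band, rose by 6.74 ± 0.26 (adjusted p = 6.81e-08) and *ART3* by 6.41 ± 0.18 (adjusted p = 1.1e-08). The 15 largest fitted falls were those of *LIM2*, *CCKAR*, *GABRG1*, *C21H14orf180*, *DAPL1*, *SPP1*, *LPAR3*, *IGF2BP1*, *GABRA2*, *CPB2*, *PRSS35*, *TMEM130*, *SNAP91*, *GNG4* and *IL17B*. *LIM2*, a membrane protein known from the lens, read 1.07, 2.01, 1.38, 1.06 and 1.72 at 110 dpc and −7.31, −7.20, −7.42, −7.06 and −7.33 at 260 dpc. *CCKAR*, the cholecystokinin receptor, read 1.85, 2.52, 1.88, 2.22 and 2.29 at 110 dpc and −5.93, −6.44, −7.10, −6.80 and −5.15 at 260 dpc. Neither was well above background at the last stage, and they were at least 91-fold and 148-fold lower (adjusted p = 3.53e-09 and 9.52e-08). Both GABA receptor subunits shared this pattern, *GABRG1* at least 75.7-fold and *GABRA2* at least 18.2-fold lower (adjusted p = 3.53e-09 and 8.76e-08). Fitted differences against a stage below background carry no order, so that by its bound *RGS5* would stand below *PERM1* and *IGF2BP1* below *VCAN*. On the unscaled table *CPB2* was not called and had the opposite sign. *SNAP91*, a clathrin adaptor of nerve endings, fell by 5.44 ± 0.16 (adjusted p = 1.45e-08) and *IL17B* by 5.39 ± 0.22 (adjusted p = 9.51e-08). Some further genes named here were well above background on only part of the arrays of a stage. At 110 dpc these were *FBXO40*, *LOC782922*, *PPARA*, *PPDPFL* and *SLC27A6* on 1 of 5 arrays, *DIO2* and *HLF* on 2, *ARID3B*, *CIDEC*, *DKK1* and *HHIP* on 3 and *LRP4*, *LRRC39*, *NR1D1* and *PTCH1* on 4. At 260 dpc they were *IGF2BP2*, *DPYSL4* and *PRSS35* on 1 of 5 arrays, *THRSP* on 2, *ACACA*, *C21H14orf180*, *HHIP*, *IGFBP2* and *TMEM130* on 3 and *ARID3B*, *COL11A2*, *LRP4*, *PTCH1* and *SGO1* on 4. Measured as bounds, the rises of those on 1 or 2 arrays were at least 2.98-fold for *FBXO40*, 22-fold for *LOC782922*, 2.49-fold for *PPARA*, 59.3-fold for *PPDPFL*, 4.42-fold for *SLC27A6*, 1.81-fold for *DIO2* and 2.4-fold for *HLF*. The falls were at least 3.21-fold for *IGF2BP2*, 5.52-fold for *DPYSL4*, 24.9-fold for *PRSS35* and 8.17-fold for *THRSP*. The calls of 18 named genes were lost when a single array was left out, namely *ADSS2*, *AQP1*, *ARID3B*, *B2M*, *CD163*, *CIDEC*, *COL11A2*, *COL3A1*, *DGAT2*, *FDFT1*, *KCNC1*, *LRP4*, *NCAPD2*, *ORC4*, *PFKL*, *RFC2*, *RPS26* and *SREBF1*.

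The arrays of 180 and 210 dpc, which took no part in the comparison, show when the shift took place. Values are means of a list's genes relative to 110 dpc, with all 21 arrays. Mitosis genes stood at −0.68, −1.02 and −2.07 at 180, 210 and 260 dpc, so that the fall went on through all stages. Oxidative phosphorylation stood at 0.25, 0.45 and 1.21 and the citrate cycle at 0.29, 0.56 and 1.39, most of it after 210 dpc. Glycolysis, at 0.85, 1.17 and 1.79, and the clock, at 0.65, 0.88 and 1.12, had covered more of their way by 180 dpc. Junction genes, at −0.69, −0.82 and −1.06, and neuron markers, at −0.79, −1.10 and −1.60, had also made most of their fall by 210 dpc. Hedgehog genes, at −0.05, −0.14 and −0.61, and the mitochondrial ribosome, at 0.02, 0.11 and 0.49, moved late. Of the 52 function lists, 36 ran in one direction through all stages.

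Single genes followed their own course within the lists. *LPL* stood at −0.97, −0.72, 1.42 and 3.04 at 110, 180, 210 and 260 dpc, with overlap between the arrays of 110 and 180 dpc and none between those of 180 and 210 dpc. *FBP2*, at −6.91, 2.04, 3.42 and 4.76, had made most of its rise by 180 dpc. *MYMK*, at 2.88, 1.80, 0.09 and −1.69, was lower at each further stage.

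The stage means of some lists peaked between the end stages. Endothelial markers stood at 0.64, 0.54 and 0.12, with every array of 180 and 210 dpc above those of 110 dpc, and between 110 and 260 dpc 6 of 15 were higher (4 without BA replicate 1 of 110 dpc) and 2 lower. The basement membrane list stood at 0.20, 0.23 and −0.21, with overlap between the arrays of 110 and 180 dpc and none between those of 110 and 210 dpc. Erythroid genes stood at 0.42, −0.27 and −1.25. Their arrays overlapped between 110 dpc (−0.41 to 0.56) and 180 dpc (0.06 to 1.01).

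**Figure D4:**
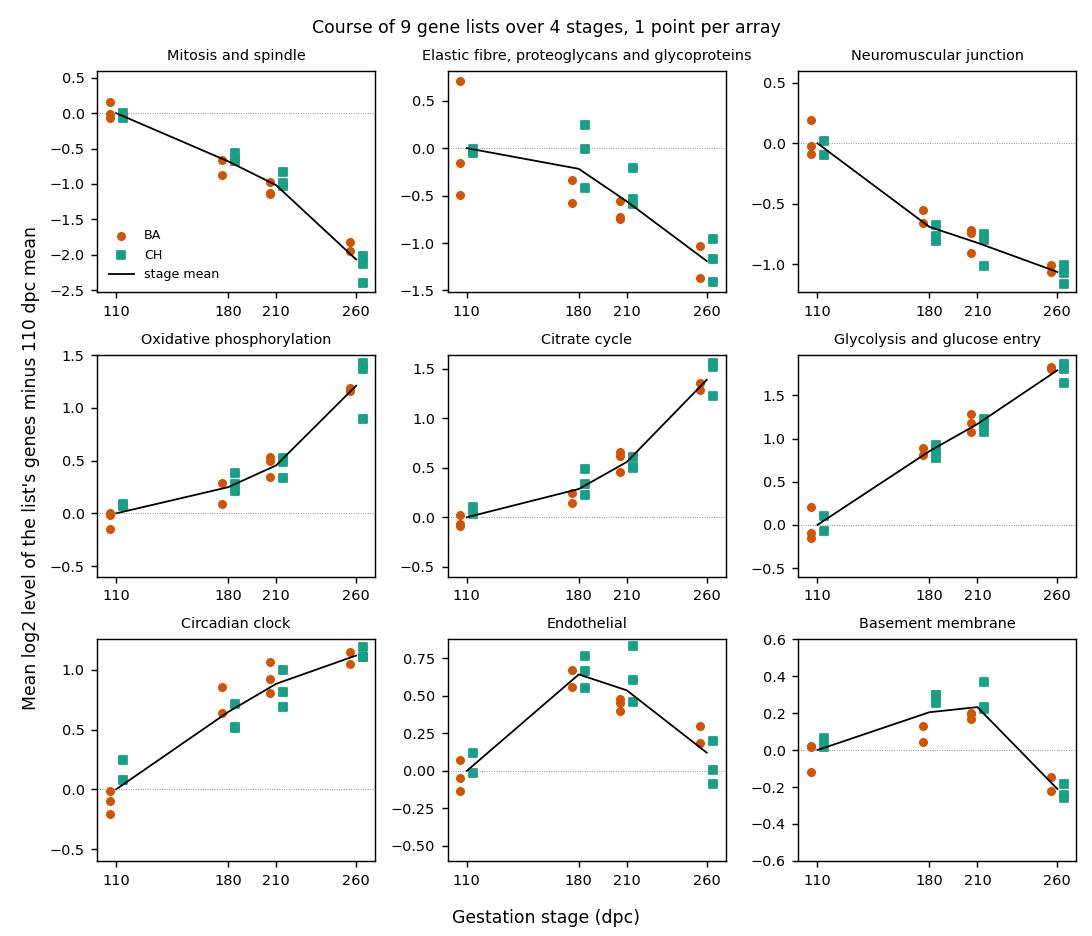
Mean level of the genes of 9 lists relative to their 110 dpc mean (log2, vertical axis) by stage in dpc (horizontal axis), 1 point per array, with circles for BA, squares for CH and a line through the stage means. Mitosis genes fell to −2.07 and oxidative phosphorylation genes rose to 1.21 at 260 dpc, while endothelial genes peaked at 0.64 at 180 dpc.

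Blood and immune markers moved as well. Of 9 erythroid genes 6 were lower and 2 higher, with the globins *HBG*, *HBB* and *HBA* at −2.68 ± 0.43, −2.46 ± 0.40 and −1.64 ± 0.22, and *TFRC*, the transferrin receptor, at 1.92 ± 0.27. Globin genes of the embryo, the foetus and the adult resemble one another, so that their probes may share signal. Of 12 macrophage markers 6 were lower and 1 higher, with *FOLR2* at −1.65 ± 0.33, *CSF1R* at −1.42 ± 0.32 and *CD163* at least 1.84-fold lower (adjusted p = 0.025), and 7 were lower and 1 higher without BA replicate 3 of 110 dpc.

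The array of 1 foetus at 110 dpc, BA replicate 3, stood apart in immune genes, which changed what the comparison of the stages called. Among the arrays compared, it was the only one on slide 6 and the only one of scan day 3. It also had the most probes well above background, 34501, and the highest 75th percentile, 932.1 units. Foetus and batch cannot be told apart here, and the part of each was not tested. *ISG15*, a ubiquitin-like protein induced by interferon, read −2.80, −0.88, 5.40, −2.72 and −3.57 at 110 dpc and −1.41, −0.99, −1.67, −0.88 and −1.56 at 260 dpc. *MX1*, an antiviral GTPase, read −1.24, 0.60, 5.05, −1.62 and −1.62 at 110 dpc and 0.12, 0.46, −0.16, 0.59 and −0.32 at 260 dpc. BA replicate 3 was above every other array in both, and the mean of the 27 genes of antigen presentation and interferon response was 2.81 above the 110 dpc mean there and between −0.88 and −0.26 on the other arrays of that stage. Its mean of macrophage markers was 1.28, against −0.69 to −0.13 on the others. With all arrays 7 of 27 genes were higher and 1 lower. Without that array 19 were higher and 2 lower, and the median went from 0.54 to 1.18. *ISG15* went from 0.00 (adjusted p = 1) to 1.26 (adjusted p = 0.0323), *RSAD2* from 0.95 (adjusted p = 0.406) to 1.78 (adjusted p = 0.000262), and the immunoproteasome subunit *PSMB8* from 1.06 (adjusted p = 0.199) to 1.64 (adjusted p = 0.000254). The antigen presentation genes were called with and without it, *B2M* at 1.66 and 2.12, *CD74* at 1.92 and 2.18 and *BOLA-DRA* at 1.82 and 2.20, though *B2M* lost its call when any of 3 other arrays was left out. *IFI6* went from −1.95 (adjusted p = 0.151) to −0.97 (adjusted p = 0.0116). Without it 56 of 60 mitosis genes were lower, 72 of 76 oxidative phosphorylation genes higher, 20 of 37 elastic fibre and proteoglycan genes lower and 8 of 14 junction genes lower. Other counts moved further, to 45 higher of the 73 genes of the mitochondrial ribosome, 14 higher of the 76 cytosolic ribosomal proteins, 8 lower of the 43 ribosome biogenesis genes, 7 higher of the 21 genes of fat synthesis and storage, 4 lower of the 21 genes of amino acid supply and 3 lower of the 39 genes of fatty acid oxidation.

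**Figure D5:**
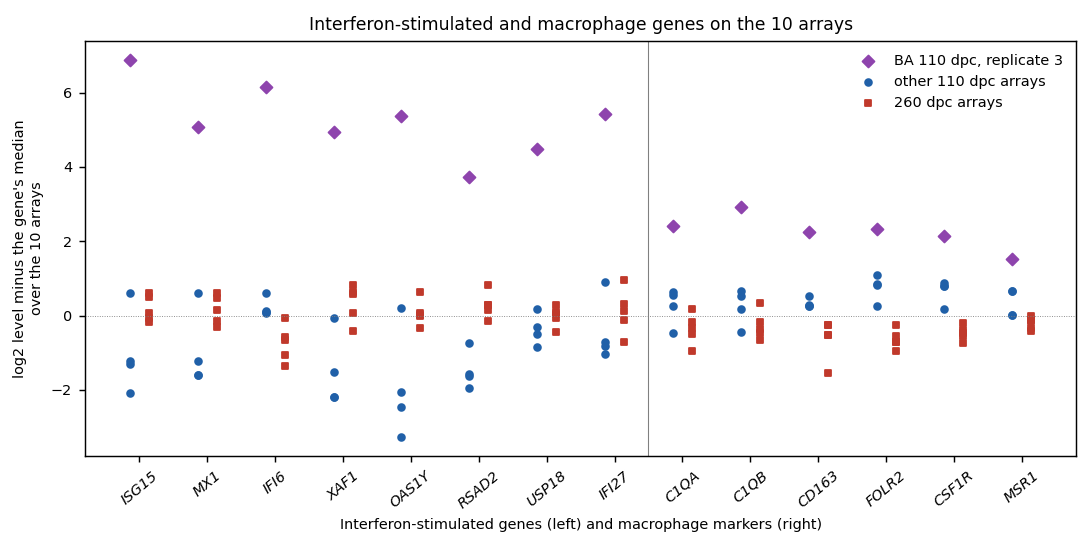
Level of 8 interferon-stimulated genes (left) and 6 macrophage markers (right) relative to the gene's median over the 10 arrays (log2, vertical axis), with a purple diamond for BA replicate 3 at 110 dpc, blue circles for the other 110 dpc arrays and red squares for the 260 dpc arrays. The diamond lies above all other points in each of the 14 genes. These were picked from the 27 tested genes of antigen presentation and interferon response and the 12 tested macrophage markers. They do not stand for all members of these lists.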

How the data were processed

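RNA of 21 foetuses was hybridised to one-colour bovine arrays, 1 array each, and the 10 arrays of 110 and 260 dpc were compared. The deposited intensity is Agilent's processed signal, which the authors made with Feature Extraction 10.7, with detrending and without background subtraction. The study's methods also name a normalization between arrays, yet the deposited signals kept a different 75th percentile on each array. The authors' value table holds these signals as log2 values, equal within 0.01 for 99.98% of the 649670 values compared. It lacks part of the values, and 30401 of the 31119 tested probes could be fitted on it. It served as the unscaled alternative, which thus differs by missing values as well as by scaling. Here log2 of the processed signal minus each array's 75th percentile over 43653 non-control probes was used, with 161 outlier spots left out and 0 saturated.

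A probe was tested when well above background on at least 5 of the 10 arrays (31119 probes). The model was limma 3.58.1 in R 4.3.3 with stage and breed, and p-values were adjusted by Benjamini-Hochberg over all tested probes. A change beyond 2-fold was tested with treat. The p-values measure the spread between foetuses. Probes were named through RefSeq accessions, which gave 12538 genes, 10245 of them tested and measured by their brightest probe. Lists are described by counts and medians alone, and list members and cell markers were chosen with earlier results of these data known.

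Genes were named by rule, as the 15 largest fitted rises and falls outside the contractile lists, up to 6 members of a list in its main direction, up to 3 in the other, up to 3 that were not called, every member of lists with 15 or fewer measured genes, and members below background at 1 stage. The rule picked 705 genes, of which 340 are named here, and outside it 66 genes were named after their values had been seen, among them the further pair members and cell cycle, glycolytic, matrix, hormone and interferon genes such as *CDK1*, *MCM4*, *PKM*, *SGK1* and *ISG15*. A bound ("at least N-fold") sets the mean of the bright stage against the mean, over the arrays of the other stage, of the lowest signal well above background or the probe's own signal if higher. The alternatives were other scalings, background correction, filters, covariates, batch terms, probes and leaving out each array. The counts without BA replicate 1 or 3 at 110 dpc were chosen after seeing the data. The fit was tested on simulated data. Some genes are not reported here, no sequences or coordinates were used, and array number limits the precision.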

Additional observations from a re-analysis of the deposited data

Results flagged for a closer look

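In a group of 5 arrays, 1 array stood far from the other 4 in 7 of 132 list means and 53 of 812 gene levels, where chance marks about 1 in 20 groups. A list mean is relative to its 110 dpc mean, and a gene level is the log2 signal minus the 75th percentile of the array.

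BA replicate 3 at 110 dpc was the outlying array in 18 of these cases. Its mean was 2.81 for antigen presentation and interferon response (others −0.88 to −0.26), 1.28 for macrophage markers (others −0.69 to −0.13) and −0.12 for the basement membrane (others 0.01 to 0.07). At 260 dpc the outlying means were −0.45 for chromatin assembly and silencing in BA replicate 2 (others −0.62 to −0.58), 1.64 for glycolysis in CH replicate 1 (others 1.81 to 1.87), and −0.48 for the thyroid hormone axis (others −0.13 to −0.05) and −1.85 for neuron markers (others −1.59 to −1.49) in CH replicate 3.

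The outlying gene levels of BA replicate 1 at 110 dpc were 6.50 for *BGN* (nearest other 4.64), −0.97 for *COL8A1* (nearest other −2.25), 0.99 for *CRY1* (nearest other 0.65), 7.69 for *DLK1* (nearest other 8.0) and 2.72 for *ELN* (nearest other 0.03). On the same array they were 0.17 for *ESRRA* (nearest other 0.84), 0.32 for *FABP4* (nearest other −2.49), 2.40 for *KCNJ11* (nearest other 2.96), 3.46 for *LAMB2* (nearest other 3.81) and 0.57 for *P4HA3* (nearest other −0.26). Further levels there were 0.87 for *PC* (nearest other 1.08). In BA replicate 2 at 110 dpc the outlying levels were 0.36 for *COL5A3* (nearest other −0.04), 0.33 for *CYP51A1* (nearest other 0.65) and 1.77 for *TFB1M* (nearest other 1.44). BA replicate 3 at 110 dpc stood apart at 6.23 for *B2M* (nearest other 3.34), 3.00 for *BOLA-DRA* (nearest other 0.78), −2.65 for *CD163* (nearest other −4.36) and 0.14 for *CD74* (nearest other −1.28). Further levels there were 3.97 for *COX7A1* (nearest other 3.29), −4.05 for *GATM* (nearest other −3.37), 7.55 for *IFI6* (nearest other 2.01), −2.39 for *IGF2BP2* (nearest other −3.32) and 3.26 for *NR3C1* (nearest other 3.15). Further levels there were −1.65 for *OPA1* (nearest other −1.26), 1.44 for *PDIA3* (nearest other 2.30), 1.54 for *PSMB8* (nearest other −1.79), −6.23 for *RGS5* (nearest other −7.26) and 1.60 for *RSAD2* (nearest other −2.87). Further levels there were 4.49 for *TCP1* (nearest other 4.81). For BA replicate 1 at 260 dpc the levels were −2.06 for *COL11A2* (nearest other −4.26), 3.32 for *EIF4A1* (nearest other 3.08), −3.47 for *PRSS35* (nearest other −5.90) and −0.51 for *TNMD* (nearest other −3.39). The outlying gene levels of BA replicate 2 at 260 dpc were 3.34 for *HMGA1* (nearest other 3.19), −0.32 for *NCAM1* (nearest other −0.65) and 3.95 for *SYNM* (nearest other 3.56). In CH replicate 1 at 110 dpc the outlying levels were 1.82 for *PYGB* (nearest other 2.23) and 1.77 for *PYGM* (nearest other 1.45). CH replicate 2 at 110 dpc stood apart at 3.83 for *DBP* (nearest other 2.41), 6.12 for *MYOD1* (nearest other 2.46), −0.17 for *PNPLA2* (nearest other −0.53), 1.49 for *PPP1R3C* (nearest other 1.74) and 1.95 for *SQSTM1* (nearest other 1.26). For CH replicate 1 at 260 dpc the levels were −6.44 for *CD163* (nearest other −5.42), 4.06 for *CHRNG* (nearest other 3.33), −0.95 for *KCNJ2* (nearest other −0.50) and −6.70 for *RSPO2* (nearest other −5.25). The outlying gene levels of CH replicate 2 at 260 dpc were 1.64 for *CHRNB1* (nearest other 1.86), 2.20 for *MEF2C* (nearest other 2.53) and −3.28 for *SNAI1* (nearest other −3.00). In CH replicate 3 at 260 dpc the outlying levels were −3.30 for *AKT2* (nearest other −2.66), −3.32 for *HMGB3* (nearest other −2.42) and −0.64 for *PRKAG3* (nearest other 0.49).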

How the results depend on the processing

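The count of probes called (17406) lay between 11845 and 18841 under all alternatives, and between 15376 and 17584 when 1 array was left out. Beyond 2-fold, 3416 probes were called, 1939 with normexp background correction, 1774 when the mean of every group had to exceed the array median, and between 2948 and 3466 with 1 array left out. The breed by stage interaction called 0 probes, and 1 probe with normexp, 1 without the filter, and between 0 and 1 with 1 array left out, the 1 arising without BA_110 replicate 1 or CH_110 replicate 1. Among the 52 function lists 25 had a median above that of all genes, and between 23 and 27 under the alternatives. The size of the medians was less steady. Of all 66 lists, 28 had a relative median that moved by more than the list's spread within stages under normexp. This held for 20 with the lowest-p probe, 19 under the filter on group means, 18 under quantile normalization and 17 in the females alone. Fewer moved under each other alternative. Relative medians turned sign for 4 lists, cell cycle exit (0.01) under the filter on group means and cytosolic ribosomal proteins (−0.26), translation factors (−0.03) and chaperones (−0.12) under quantile normalization. With the lowest-p probe in place of the brightest, *ATP2A2* stood at 1.64, *CDH15* at 2.84, *DNMT3A* at 0.60, *ENO1* at 0.43, *KIF22* at −2.99 and *MYOG* at 2.87. Under quantile normalization *CTNNB1* stood at −0.30, *EEF2* at −0.46, *HSP90AA1* at −0.45 and *IGF2* at −0.19. On the unscaled table *CPB2* stood at 1.01 (adjusted p = 0.446), *EED* at −0.07, *EEF2* at −0.37, *IGF2* at −0.03, *NR3C1* at −0.06, *ORC4* at −0.07, *RFC2* at −0.10 and *SREBF1* at −0.01. The unscaled table also lacks part of the values, and the cause of these changes was not tested. Of the named genes 18 lost their call when 1 array was left out, with every direction kept. *FDFT1*, *NCAPD2* and *ORC4* lost it only without CH_110 replicate 2 (0.36, 0.37 and 0.28), and the other 15 without 2 or more arrays. Another 15 genes gained a call, among them *DBP* (0.64) and *NDUFA3* (0.78) without CH_110 replicate 2 and *MX1* (1.18) without BA_110 replicate 3. Of the calls of named genes 31 were lost in the females alone, 28 were lost on the unscaled table and 21 with sire in place of breed. With the label's replicate number as a replicate block 16762 probes were called. The numbers did not pair the arrays, since deviations of same-numbered arrays had a median r of 0.007 over 13 pairs (from −0.23 to 0.13). The block lost 4 calls of named genes. Genes well above background on no array of a stage have bounds in place of folds, as do some measured on only part of the arrays, and 5 arrays a stage limit the precision.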
